A study of Rattus norvegicus with 6 samples.

Results

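A set of 10 vascular growth genes was followed in the kidneys of diabetic rats with and without Qishen Yiqi dripping pill (QYDP), an herbal medicine. They were the vascular endothelial growth factor (VEGF) ligands Vegfa, Vegfb and Vegfc, the receptors Flt1, Kdr, Flt4 and Nrp1, the angiopoietins Angpt1 and Angpt2, and the angiopoietin receptor Tek. The genes were chosen by name and looked up among transcript rows paired with exactly 1 gene symbol, keeping the row with the highest mean for each gene. Of the 10 genes, 9 were found among 18166 genes so measured, each on 1 row, and Kdr was not analysed here. In this text a member is one of these 9 genes.

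The 2 groups had 3 arrays each. Both groups were Sprague Dawley rats, labelled 17 weeks of age and made diabetic with 60 mg/kg streptozotocin, which destroys the insulin-producing β cells. Rats of the HQYDP group then took the high dosage of QYDP, 300 mg/kg/day by gavage for 8 weeks, while rats of the diabetes mellitus (DM) group took saline. Doses, the length of treatment and the use of cortex come from the study's methods, since the labels give only kidney. Male rats and a toxin model of insulin deficiency limit what the groups can stand for, and non-diabetic and low-dosage rats were not analysed here. The labels number the arrays 1 to 3 in each group without saying how many rats stand behind an array, so the p-values measure the spread between these samples, which may be technical. The labels also mark all 3 DM arrays, and no HQYDP array, as a re-analysis. If this means another run, run and group cannot be told apart.

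VEGF-A is the main survival and permeability factor of the endothelium. In the kidney it is made largely by podocytes and tubule cells, and it acts on the neighbouring capillaries through Kdr, with Flt1 as a high-affinity receptor that can hold it back and Nrp1 as a coreceptor. VEGF-C and its receptor Flt4 act mainly on lymphatic vessels and on fenestrated endothelium. Angiopoietin 1 is secreted by mesenchymal and mural cells and activates the receptor Tek, which steadies the vessel wall. Angiopoietin 2 is released by activated endothelium and mostly opposes it.

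The authors deposited log2 signals from Affymetrix Rat Gene 2.0 ST arrays, with array medians between 4.70 and 4.85. Signals of different genes come from different probes, so only values of 1 gene are compared with each other. The kidney origin was visible in Slc34a1, the phosphate carrier of the proximal tubule, which lay between 11.63 and 12.40, and in Lrp2, which encodes megalin, between 11.69 and 11.89. Endothelium was visible in Emcn, endomucin, between 9.25 and 9.66. DM replicate 2 stood apart, at 39.5 on the first principal component of all genes, while DM replicate 3 lay at -14.9 among the HQYDP arrays at -16.2 to -10.6. Groups were compared with limma (3 arrays against 3), whose p-values were adjusted over all 18166 genes by the Benjamini-Hochberg method. The study selected genes by 2 thresholds, p under 0.05 without adjustment and more than 1.5 fold between the groups (0.58 on the log2 scale).

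None of the 9 members passed the study thresholds or an adjusted p under 0.05, and none reached an unadjusted p under 0.05. Of all genes, 3.28% passed the study thresholds, 0.0165% had an adjusted p under 0.05 and 7.38% an unadjusted p under 0.05, all with limma. Log2 differences of the members, HQYDP minus DM, ran from -0.45 for Angpt2 to 0.17 for Vegfb. Of these differences 5 were below 0 and 4 above it. Their median was -0.02, beside -0.0017 over all genes. In every member the arrays of the 2 groups overlapped, whereas 12.1% of all genes showed no overlap.

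Vegfa, the principal ligand, had log2 signals of 9.003, 9.25 and 8.63 in HQYDP replicates 1 to 3 and 8.94, 8.79 and 8.82 in DM replicates 1 to 3. The HQYDP kidneys thus held both the highest and the lowest value of the 6 arrays, and the DM kidneys lay close together between them. Mean signals were 8.96 ± 0.31 (SD, n = 3) with QYDP and 8.85 ± 0.08 (SD, n = 3) without it, which differ by 0.11 on the log2 scale (standard error 0.18, 95% interval -0.30 to 0.52, adjusted p = 0.974 from limma). On the linear scale the interval runs from 0.81 to 1.43 fold. The direction rested on HQYDP replicate 2, without which the log2 difference was -0.04.

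Vegfb, a ligand of Flt1 linked to lipid handling in endothelium, was the most variable of the VEGF ligands. Its signals were 8.49, 8.54 and 7.69 in HQYDP and 8.65, 7.93 and 7.62 in DM. Each group held low arrays near 7.6 to 7.9 and high arrays near 8.5 to 8.7, so the spread ran within the groups and not between them. The log2 difference was 0.17 (standard error 0.30, 95% interval -0.50 to 0.84, adjusted p = 0.974 from limma), and its within-group SD of 0.50 lay at percentile 95.6 of all genes. It was -0.05 without DM replicate 3.

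Vegfc, the lymphatic ligand, stayed within a range of 0.32 over the 6 arrays. HQYDP replicates had 6.03, 6.01 and 6.19, and DM replicates had 6.21, 6.32 and 6.002. The arrays of the groups were interleaved, with a log2 difference of -0.10 (standard error 0.16, 95% interval -0.45 to 0.24, adjusted p = 0.967 from limma). No VEGF ligand differed beyond the spread between arrays, and the 95% intervals of Vegfa and Vegfc lay within 1.5 fold in either direction.

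**Figure D1:**
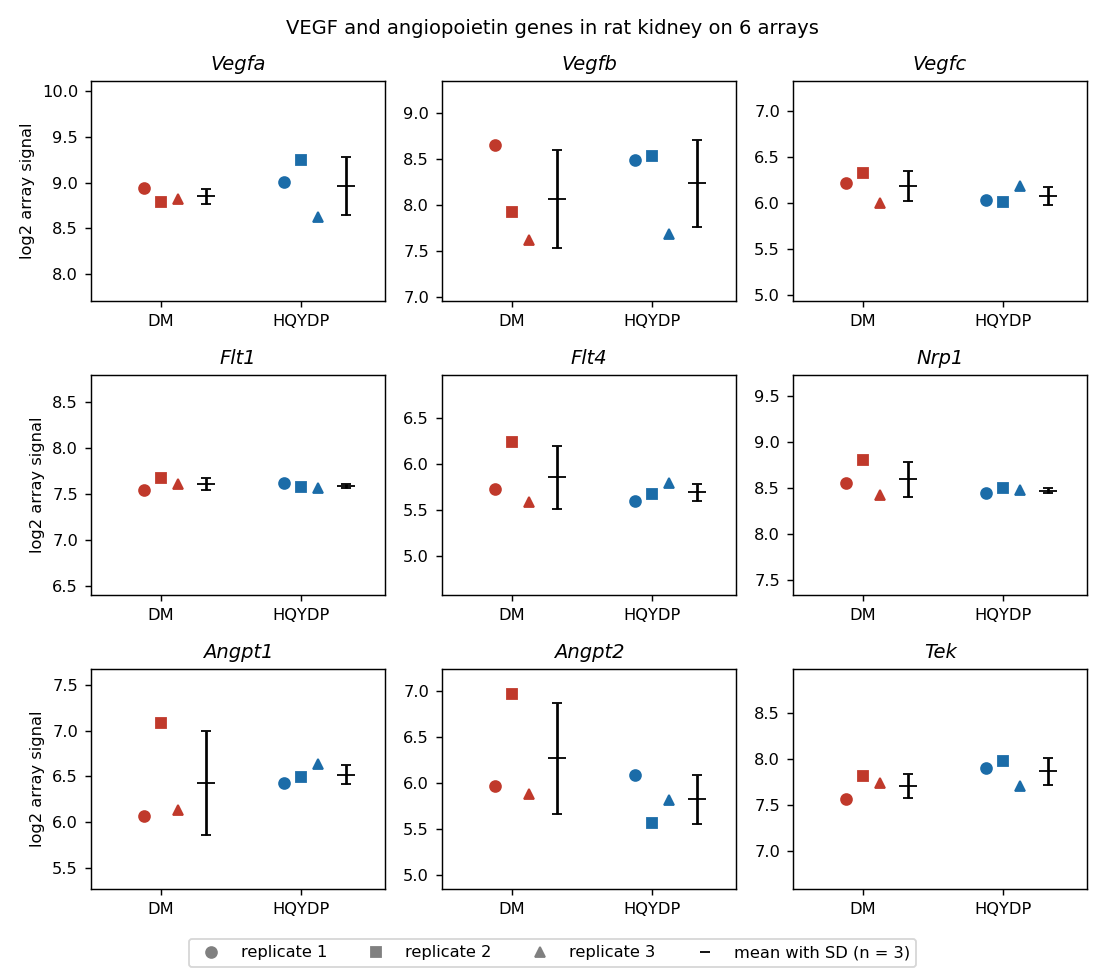
Log2 array signals of the 9 measured members in DM (red) and HQYDP (blue) kidneys, 1 point per array, with the group mean and SD (n = 3) in black; every panel spans the same number of log2 units. Groups overlap in every panel, Flt1 is nearly flat, and DM replicate 2 (red square) is the top point of 6 panels.

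Flt1, also called VEGF receptor 1, was the steadiest member. Its signals were 7.61, 7.58 and 7.57 in HQYDP and 7.54, 7.67 and 7.60 in DM, a range of 0.13 over all arrays. The log2 difference was -0.02 (standard error 0.14, 95% interval -0.33 to 0.30, adjusted p = 0.995 from limma). Its within-group SD of 0.05 lay at percentile 0.7 of all genes, and limma widens so small a spread toward that of the other genes, so that the standard error is larger than the arrays of Flt1 alone would give. On the linear scale the interval runs from 0.79 to 1.23 fold.

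Flt4, the receptor of lymphatic endothelium and of VEGF-C, had 5.60, 5.67 and 5.79 in HQYDP and 5.73, 6.24 and 5.59 in DM. A single array, DM replicate 2, stood 0.56 above the mean of the other 5 arrays. The log2 difference was -0.16 (standard error 0.19, 95% interval -0.59 to 0.26, adjusted p = 0.951 from limma), and without DM replicate 2 it was 0.03.

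Nrp1, the neuropilin that binds VEGF-A beside its main receptors, had 8.44, 8.49 and 8.48 in HQYDP and 8.55, 8.80 and 8.42 in DM. The HQYDP arrays were tightly grouped, with an SD of 0.03 against 0.19 in DM. The log2 difference of -0.12 (standard error 0.16, 95% interval -0.47 to 0.22, adjusted p = 0.955 from limma) shrank to -0.02 without DM replicate 2.

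Tek, the angiopoietin receptor also known as Tie2, had 7.91, 7.98 and 7.70 in HQYDP and 7.57, 7.81 and 7.74 in DM. HQYDP replicates 1 and 2 lay above all DM arrays, and replicate 3 fell inside the DM range. The log2 difference was 0.16 (standard error 0.16, 95% interval -0.19 to 0.51, adjusted p = 0.929 from limma), and it lay between 0.09 and 0.24 when each array was left out in turn. No receptor differed beyond the array spread either.

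In both angiopoietins a single array stood far above the others. Angpt1 had 6.43, 6.49 and 6.63 in HQYDP and 6.07, 7.09 and 6.14 in DM. The 3 HQYDP arrays lay together, above DM replicates 1 and 3 and below DM replicate 2. Group means of 6.52 ± 0.10 (SD, n = 3) with QYDP and 6.43 ± 0.57 (SD, n = 3) without it left 0.09 between them on the log2 scale (standard error 0.26, 95% interval -0.48 to 0.66, adjusted p = 0.988 from limma). Without DM replicate 2 the difference was 0.42 (unadjusted p = 0.0276 and adjusted p = 0.71 from limma), below the 1.5-fold threshold.

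Angpt2 had the largest difference of the members. Its signals were 6.09, 5.56 and 5.81 in HQYDP and 5.96, 6.96 and 5.88 in DM. DM replicate 2 stood 1.10 above the mean of the other 5 arrays, while the other DM arrays lay inside the HQYDP range. The means were 5.82 ± 0.26 (SD, n = 3) and 6.27 ± 0.60 (SD, n = 3). The log2 difference was -0.45 (standard error 0.28, 95% interval -1.08 to 0.18, unadjusted p = 0.145 and adjusted p = 0.838 from limma). It was -0.10 without DM replicate 2 and -0.64 without DM replicate 3. On the linear scale the interval runs from 0.47 to 1.14 fold. With 3 arrays against 3 it thus does not exclude Angpt2 being 1.5 fold lower in HQYDP, while 1.5 fold higher lies outside it.

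**Figure D2:**
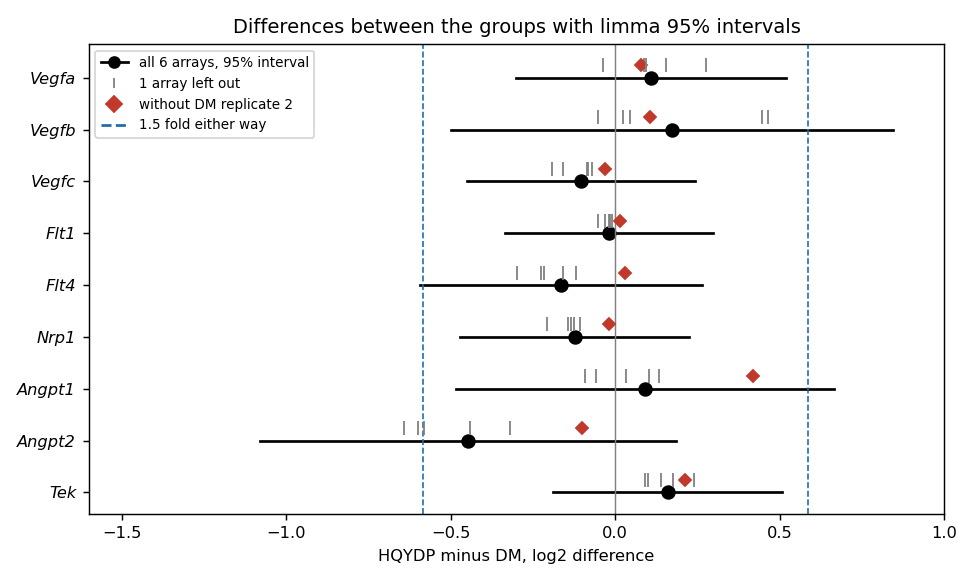
Log2 difference HQYDP minus DM of each member (black point) with its limma 95% interval (black line), the values after leaving out 1 array (grey ticks, red diamond for DM replicate 2), and dashed lines at 1.5 fold. All 9 intervals include 0, and the red diamond lies farthest from the black point in Angpt1 and Angpt2.

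The intervals show how far each gene was pinned down. For Vegfa, Vegfc, Flt1, Nrp1 and Tek the whole 95% interval lay within 1.5 fold either way. This held for 5 of 9 members and for 57.7% of all genes. The intervals of Vegfb, Flt4, Angpt1 and Angpt2 reached past 1.5 fold on at least 1 side, that of Flt4 only just. The median within-group SD was 0.23 over the members and 0.21 (0.215) over all genes, so the arrays spread about as much for the members as for other genes.

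The angiopoietins have opposing roles at Tek, so their difference was also taken within each array. Both were high in the same DM kidney. Angpt2 minus Angpt1 was -0.34, -0.93 and -0.83 in HQYDP replicates 1 to 3 and -0.10, -0.12 and -0.26 in DM replicates 1 to 3. Every value of HQYDP was thus lower than every value of DM, with means of -0.70 ± 0.32 (SD, n = 3) and -0.16 ± 0.08 (SD, n = 3). Of all genes taken singly 12.1% showed no overlap either. The share among differences between 2 genes was not computed, so how common such a separation is remains unknown. The sizes themselves depend on the probes of the 2 genes, and only the change between groups, -0.54 on the log2 scale, can be read. An exact two-sided permutation test gave p = 0.1 (n = 3 against 3), which is the smallest p that the 20 possible splits allow, so the test cannot pass 0.05. The change was -0.52 without DM replicate 2 and lay between -0.72 and -0.42 when any 1 array was left out. Subtraction removes what both ligands share on an array, so a small effect of DM replicate 2 here follows from its high value in both. Neither ligand alone differed beyond the array spread.

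**Figure D3:**
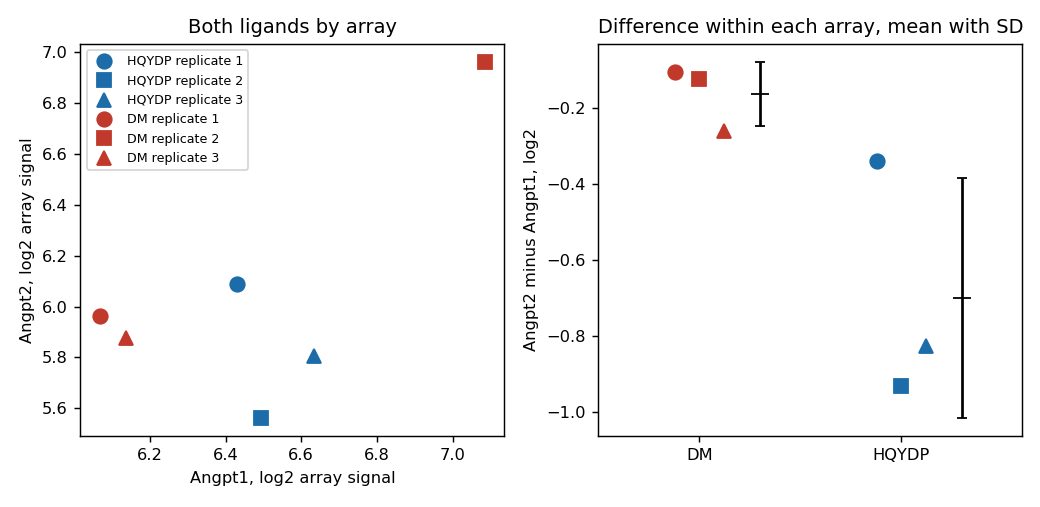
Left, Angpt2 against Angpt1 log2 signal on each array, DM in red and HQYDP in blue; right, Angpt2 minus Angpt1 within each array with the group mean and SD (n = 3). DM replicate 2 is high for both ligands on the left, and on the right the DM arrays lie between -0.26 and -0.10 and the HQYDP arrays between -0.93 and -0.34.

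DM replicate 2 carried the highest signal of the 6 arrays in 6 of 9 members, namely Vegfc, Flt1, Flt4, Nrp1, Angpt1 and Angpt2. Over all genes it was the highest array for 20.7%. It was not highest for Vegfa, Vegfb and Tek, where it lay -0.14, -0.27 and 0.03 from the mean of the other arrays. DM replicate 3 was the lowest array in 4 of 9 members and in 19.6% of all genes. In 7 of 9 members the SD was smaller in HQYDP than in DM, which was also the case for 64.4% of all genes.

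Some lists of cell type markers were high on that array too. Averaged over 6 lymphatic endothelial markers, DM replicate 2 lay 0.91 above the mean of all arrays, and the other arrays lay between -0.31 and -0.05. Ccl21, a chemokine of lymphatic vessels, had 8.37 in DM replicate 2 and 5.24 to 6.62 in the others. Averaged over 9 macrophage markers, the DM arrays ranged from -0.27 to 1.03 and the HQYDP arrays from -0.51 to -0.15, with DM replicate 2 the highest. The mural and mesangial list reached 0.34 there, against -0.26 to 0.06 elsewhere, but its genes were mixed. Rgs5 and Pdgfrb lay 1.10 and 1.145 from the mean of the other arrays, Gata3 and Cspg4 -0.57 and -0.35. Podocyte markers and markers of the thick ascending limb and later segments were below the mean on every DM array, not on DM replicate 2 alone. Podocyte markers lay at -0.146, -0.139 and -0.117 in DM replicates 1 to 3. Those of the thick ascending limb and later segments lay at -0.26, -0.36 and -0.08. The part of these cells in the angiopoietin, Flt4 and Nrp1 values was not tested. In whole tissue fewer cells of a type and less RNA per cell cannot be told apart.

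**Figure D4:**
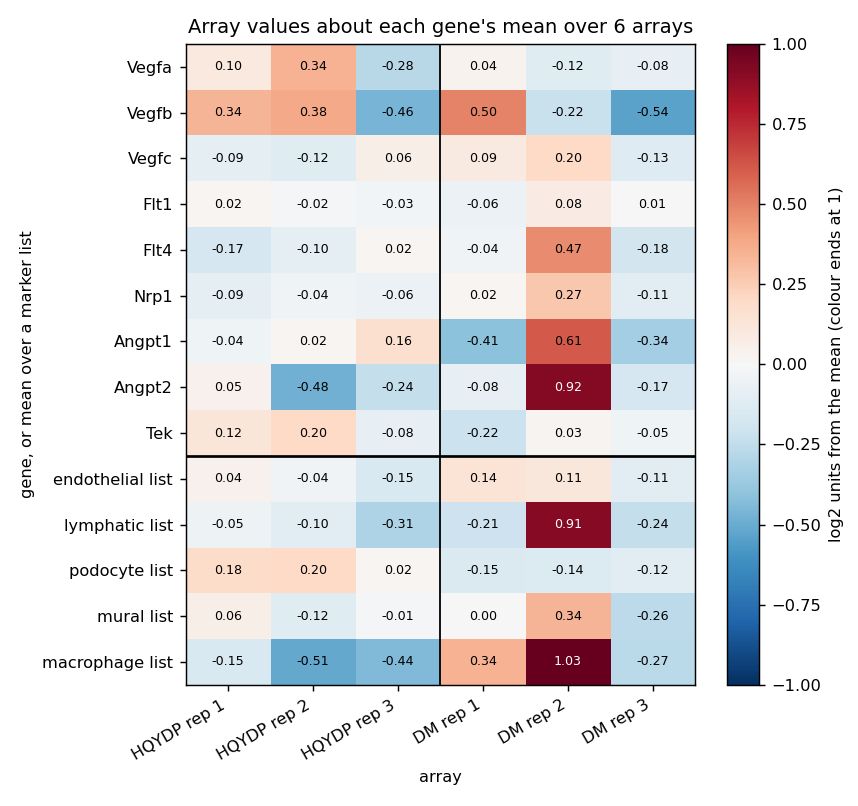
Each member's log2 signal on each array minus its mean over the 6 arrays, with the same quantity averaged over 5 marker lists in the lower rows (red above the mean, blue below). DM replicate 2 is high in Angpt2, Angpt1 and Flt4 and in the lymphatic and macrophage rows, and it is near the mean in Tek and in the endothelial row.

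The cells that make and receive these factors were read from marker lists. Of 14 endothelial markers none passed the study thresholds, with a median log2 difference of -0.16. The largest was that of the transcription factor Fli1, -0.49 (unadjusted p = 0.0345 and adjusted p = 0.61 from limma). Endothelial list values overlapped between the groups, at -0.15 to 0.04 in HQYDP and -0.11 to 0.14 in DM. Of 6 podocyte markers none passed the study thresholds, but 3 had an unadjusted p under 0.05 and were higher, Nphs1 (nephrin) with 0.49, Podxl (podocalyxin) with 0.47 and Wt1 with 0.39, the latter 2 named after their values were seen (adjusted p = 0.525, 0.496 and 0.629 from limma). Over all genes 7.38% had an unadjusted p under 0.05. Only 6 of the 9 listed podocyte markers were measured. Of these 5 were above 0, and Tcf21 went the other way with -0.26. Podocyte list values were 0.02 to 0.20 in HQYDP and -0.15 to -0.12 in DM. Of all genes taken singly 12.1% showed no overlap either. Vegfa, which podocytes secrete, overlapped between the groups, as given above. None of the 6 lymphatic markers passed, with Ccl21 at -0.85 (adjusted p = 0.859 from limma). Of 9 genes of the macrophage list 7 were lower at the study thresholds, beside 1.82% of all genes. They were Ptprc, Cd68, Csf1r, Adgre1, Mrc1, C1qa and C1qb (-1.19 to -0.62). Cd163 (-0.15) and C1qc (-0.50) did not pass. The count of lower genes in this list was 1 without DM replicate 2, 1 without HQYDP replicate 2, 2 without HQYDP replicate 3, 3 without DM replicate 1 and 0 with the methods' t-test.

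Among the tubule lists, none of 8 proximal markers passed, with Slc5a12, a lactate carrier, at -0.59 (adjusted p = 0.731 from limma). Of 7 markers of the thick ascending limb and the segments after it, Umod, uromodulin, with 0.65 and Egf with 1.05 were higher at the study thresholds (adjusted p = 0.297 and 0.233 from limma). The background for higher genes is 1.46%. Umod came under the fold threshold without HQYDP replicate 3 (0.578) and without DM replicate 3 (0.571). Both are among the genes the study selected on these samples, so their calls are not independent evidence.

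The nearest relatives of the members were mostly as flat. Of 5 other ligands and receptors, only Nrp2 passed the study thresholds. Nrp2 is the neuropilin that serves VEGF-C and lymphatic growth. Its signals were 5.55, 5.18 and 5.33 in HQYDP and 5.88, 6.56 and 5.81 in DM, and the groups did not overlap. Nrp2 was lower by the study thresholds with -0.73 on the log2 scale (adjusted p = 0.432 from limma, standard error 0.22), and without DM replicate 2, which was again the highest array, it was -0.49 and under the fold threshold. The placental growth factor Pgf (-0.15), Vegfd (-0.01), Angpt4 (0.02) and the orphan receptor Tie1 (-0.14) did not pass.

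Genes that endothelium regulates in response to VEGF, or that guide sprouting vessels, were lower in part. Of 18 such genes 4 passed the study thresholds as lower and none as higher, and the list median was -0.25. The background for lower genes is 1.82%. Esm1, the endothelial proteoglycan endocan, had 6.36, 5.73 and 6.25 in HQYDP and 6.46, 7.01 and 7.26 in DM. It differed by -0.80 on the log2 scale (adjusted p = 0.445 from limma, standard error 0.24) with no overlap between the groups, though the highest HQYDP and the lowest DM array were only 0.10 apart.

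Adamts1, a secreted protease that can bind VEGF, had 7.21, 6.88 and 7.004 in HQYDP and 8.86, 9.31 and 7.28 in DM. DM replicate 3 lay close to the HQYDP arrays and the other DM kidneys far above them, and the groups differed by -1.45 on the log2 scale (adjusted p = 0.426 from limma, standard error 0.43). The guidance receptor Unc5b had -0.60 and the chemokine receptor Cxcr4, which leukocytes express too, -0.72, with adjusted p = 0.419 and 0.569 from limma. Unc5b had -0.22 on its dimmer row, and it no longer passed when HQYDP replicate 1 (-0.54) or DM replicate 2 (-0.46) was left out. Cxcr4 no longer passed when HQYDP replicate 2 (-0.59) or DM replicate 2 (-0.39) was left out. Of the 18 differences 15 were below 0 and 3 above it, and over all genes 9145 of 18166 were below 0. Averaged over this list, DM replicate 2 lay 0.47 above the mean of all arrays, and the other arrays lay between -0.22 and 0.12. The count of lower genes in this list was 1 with the methods' t-test and 2 without DM replicate 2.

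Genes of oxygen sensing, which controls Vegfa transcription, were followed with 2 lists. The arrays read RNA only, so protein levels and activity of the regulators were not measured, and oxygen sensing itself cannot be read from them. None of 7 regulators passed, and their log2 differences lay between -0.13 for Arnt and 0.07. Hif1a, the inducible subunit, had 9.11, 9.24 and 9.16 in HQYDP and 9.27, 9.59 and 8.64 in DM, with a log2 difference of 0.01 (standard error 0.23). Of 11 hypoxia targets other than the members 3 were lower, beside 1.82% of all genes, although the list median was 0.12. The 3 were Ndrg1, Hilpda and Pfkfb3 with -0.59, -0.63 and -0.59 (adjusted p = 0.426, 0.416 and 0.589 from limma). The count was 1 with quantile normalization and without HQYDP replicate 3, and 2 with the methods' t-test and without any 1 of the other arrays. Pfkfb3 had -0.37 without HQYDP replicate 1. Hilpda is a lipid droplet protein and Pfkfb3 an enzyme that drives glycolysis, and both respond to other signals as well. Vegfa, a target of the same factors, had 0.11. Ndrg1 and Hilpda are also among the genes selected by the study.

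Of the platelet-derived growth factor genes, which recruit mural cells to vessels, 1 of 6 was lower, the receptor Pdgfrb with -0.71 (adjusted p = 0.528 from limma), and it lost its call without DM replicate 2 (-0.41), HQYDP replicate 2 (-0.65) or HQYDP replicate 3 (-0.67). Pdgfrb is also the 1 lower gene of 8 mural and mesangial markers. Of 9 class 3 semaphorins and plexins, which share the neuropilins with VEGF, none passed, with Sema3g at 0.46. None of 6 inhibitors of angiogenesis passed, with Col18a1, the source of endostatin, at -0.33. Over the 62 measured genes of the pathway lists, 14.5% passed the study thresholds, all of them lower, beside 3.28% of all genes. Their count of 9 fell to 4 with the methods' t-test and to 4 without DM replicate 2. None of the 9 members passed, and a share near 3.28% can also leave none among 9 genes. The difference between the share of the lists and that of the members was not tested.

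**Figure D5:**
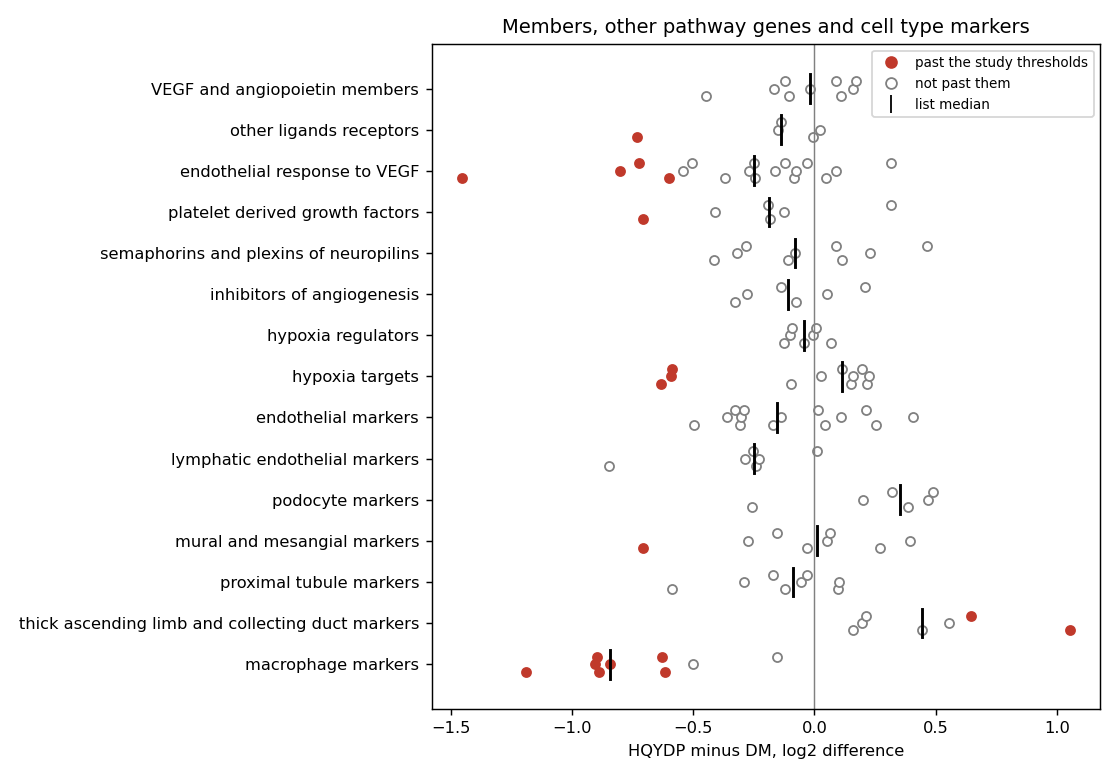
Log2 difference HQYDP minus DM of every measured gene of the members, the other pathway lists and the cell type lists; filled red points passed the study thresholds, open points did not, and black bars are list medians. The members cluster around 0 with no filled point, while the macrophage list holds 7 filled points, the VEGF response list 4 and the hypoxia target list 3.

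Over the 6 arrays, the genes whose centred signals lay nearest to those of Vegfa were Doxl1, Cacna1g and Pabir1, with root mean square differences of 0.03, 0.03 and 0.04 log2 units, where Vegfa itself varied by 0.20. Nearest to Angpt2, the member with the smallest unadjusted p, were Sla, St3gal4 and Dsel with 0.06, 0.08 and 0.08, where Angpt2 varied by 0.44. Sla, an adaptor protein of lymphocytes and other leukocytes, had its highest signal, 6.70, in DM replicate 2 and 5.32 to 5.67 in the other arrays. Doxl1 was dim, at 3.26 to 3.85, where the lower quartiles of the arrays were 3.39 to 3.56. These genes were picked as the closest of 18166 over only 6 arrays, so no link to Vegfa or Angpt2 can be read from them.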

How the data were processed

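Kidney RNA of 3 HQYDP and 3 DM samples was labelled with biotin and read on 6 arrays. The authors deposited log2 values per transcript row, taken to be normalized between arrays. The log base was inferred from the range of 0.35 to 13.59. Software and normalization: not given in the sources used here.

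Of 36685 rows, 18511 carried 1 symbol of the platform annotation, 575 several and 17599 none. The Entrez IDs of all 9 measured members matched RefSeq genes of GRCr8 without a change of symbol. Coordinates and sequences are left out, because the arrays' genome build is unknown and no result concerns a promoter.

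Differences and their two-sided p-values came from lmFit and eBayes of limma 3.58.1, run under R 4.3.3 with neither covariates nor a filter on dim genes. The fit was tested on simulated data. Members and lists were chosen with earlier results of these data known. By rule the text names all members, every list gene past the study thresholds or, where there is none, the gene with the largest difference. The rule also covers the 3 genes nearest to Vegfa and to the member with the smallest p. Further list genes, among them Emcn, Slc34a1, Lrp2, Hif1a, Pgf, Rgs5, Cd163, Podxl and Tcf21, are named outside this rule. Other settings were Welch's test, the methods' t-test, array weights, an intensity trend, quantile normalization, centring on medians, a block for the replicate number, removal of dim genes, other rules for rows, and leaving out 1 array at a time. The number of arrays limits the precision. Flt1 minus Kdr was planned and not computed.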

Additional observations from a re-analysis of the deposited data

How the results depend on the processing

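In all 16 alternatives no member passed the study thresholds or an adjusted p under 0.05. The direction changed only when an array was left out, in Vegfa (-0.037 to 0.28), Vegfb (-0.053 to 0.46), Flt1 (-0.052 to 0.015), Flt4 (-0.30 to 0.028) and Angpt1 (-0.092 to 0.42), with 1 member, Angpt1 without DM replicate 2, at an unadjusted p under 0.05, while Vegfc, Nrp1, Angpt2 and Tek kept theirs. The change of Angpt2 minus Angpt1 lay between -0.54 and -0.53 under the other scalings and row rules and between -0.72 and -0.42 with an array left out. Over all genes the count with an adjusted p under 0.05 was 3 with limma, 0 with the methods' t-test and with Welch's test (1145 and 807 at an unadjusted p under 0.05), 8 with an intensity trend, 16 with array weights and 9 without dim genes, and 0 to 151 with an array left out, the highest without DM replicate 3. At the study thresholds 596 genes passed with limma, 278 with the methods' t-test, 200 with Welch's test and 504 to 1109 with an array left out. Lower genes of the pathway lists numbered 9, then 4 with the methods' t-test, 3 with Welch's test and 4 to 9 with an array left out, the fewest without DM replicate 2, and higher genes numbered 0 to 1. Of the cell type markers 8 were lower, 0 with the methods' t-test, 0 with Welch's test and 1 to 11 with an array left out, and 2 were higher, 1 to 4 with an array left out. The causes were not tested. Of 18 list genes past the study thresholds, 1 kept its call in every alternative, and none changed direction. Same-numbered arrays deviated together with correlations of 0.14, -0.08 and 0.21 over genes, so the numbers are not taken as pairs. With the replicate block 661 genes passed the study thresholds and 2 had an adjusted p under 0.05. The block changed no call of a member.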
